A study of Rattus norvegicus with 8 samples.

Results

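The cytosolic ribosomal protein genes are the genes of the proteins that, with the ribosomal RNAs, build the large (60S) and small (40S) subunits of the ribosome that translates nuclear mRNAs. They were chosen by name: a gene symbol of Rpl or Rps followed by a digit, or Rplp0, Rplp1, Rplp2 or Rpsa, on a probe set annotated to that symbol alone, without the Rps6k kinases, pseudogenes and paralogues marked by an l. The rule gave 69 of the 14506 genes with a uniquely named probe set, of which 39 belong to the large subunit, 3 to its P stalk and 27 to the small subunit. The name rule uses no measured value, except that a gene with several probe sets was represented by the one with the highest mean over the 8 arrays. The members were chosen with earlier results of these data known. Rps19bp1, whose product binds a ribosomal protein without being one, matches the letters and was left out.

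The samples were hypothalami of 21-day-old female Sprague-Dawley rats, profiled on Affymetrix Rat Gene 1.0 arrays with 2 arrays for each of 4 groups. CR-l and CR-s were offspring of mothers whose calories were cut by 50% from gestation day 11 to 21 and after birth, given leptin or saline from postnatal day 2 to 8. Con-l and Con-s were offspring of normally fed mothers, given leptin or saline over the same days. Pooling of animals or litters within an RNA sample is not stated, and a few sample names leave it open whether dam or pup was injected. The p-values therefore describe the spread among these 8 samples, which may be technical. Con-l appears once as Con-r in the design text, and the sample titles were followed.

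Ribosomal proteins are made in near-equal numbers, since a subunit needs a copy of nearly every one, and surplus free copies are degraded. In mammals their mRNAs begin with a C followed by an unbroken run of C and T, the terminal oligopyrimidine (TOP) tract, through which the nutrient-sensing kinase complex mTORC1 and the RNA-binding protein Larp1 control how much of the mRNA is translated. Leptin and nutrition are known to act on mTORC1 in the hypothalamus. An array reads mRNA, so that control of translation is not measured here.

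The start-site sequences are shown because the TOP tract is the feature for which these mRNAs are known, and it can be looked for at the annotated starts. The RefSeq promoter table (build GRCr8) held an entry for 59 of the 69 genes, and none for Rpl7, Rpl8, Rpl15, Rpl23a, Rpl27, Rpl30, Rpl32, Rps20, Rps25 and Rps29. A C at the annotated start base followed by 4 bases that are each C or T stood in 23 of the 59 (39.0%), against 264 of the 11911 other tested genes with an entry (2.22%) and 722 of all 27457 promoters (2.63%). Within 5 bases of the annotated start the same pattern stood in 38 of the 59 (64.4%), against 15.9% of the other tested genes and 17.0% of all promoters. The start base was a C in 33 of the 59 and in 26.8% of the other tested genes. Annotated starts can be off by some bases, and a match is a description of these letters only. The windows below run from 35 bases before the start to the first 15 transcribed bases, 5′ to 3′ on the gene's strand, for genes whose values on every array are given further on. Capitals mark the unbroken run of C and T from the start base, and a window without capitals starts with A or G. They lie at chrX:157205815-157205864 (plus strand) for Rpl10, chr7:113507976-113508025 (minus) for Rpl3, chr7:1563483-1563532 (minus) for Rpl41, chr12:46718376-46718425 (minus) for Rplp0, chr10:14251813-14251862 (plus) for Rps2, chr8:128728844-128728893 (plus) for Rpsa, chr20:5700730-5700779 (minus) for Rps10, chr2:177964592-177964641 (minus) for Rps27 and chr4:183000878-183000927 (plus) for Rps4y2.
Rpl10: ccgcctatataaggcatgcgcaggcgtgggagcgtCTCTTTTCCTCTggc
Rpl3: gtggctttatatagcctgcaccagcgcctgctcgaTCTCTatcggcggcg
Rpl41: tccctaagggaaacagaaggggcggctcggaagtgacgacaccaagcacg
Rplp0: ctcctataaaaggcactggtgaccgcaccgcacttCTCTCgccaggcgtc
Rps2: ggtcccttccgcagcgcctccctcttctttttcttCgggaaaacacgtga
Rpsa: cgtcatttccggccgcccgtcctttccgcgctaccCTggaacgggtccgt
Rps10: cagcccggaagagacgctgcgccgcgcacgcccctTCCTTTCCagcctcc
Rps27: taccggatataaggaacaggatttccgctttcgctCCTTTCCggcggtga
Rps4y2: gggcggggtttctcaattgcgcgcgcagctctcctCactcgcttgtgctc

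Of these 9 genes Rpl10, Rplp0 and Rps27 have a C and at least 4 more pyrimidines at the annotated start, and Rpl10 has a run of 12. The bases just before the annotated start of Rps2 are all C or T. Over the whole 300-base windows (250 bases before the start and 50 after it) the ETS-type motif CCGGAAG, on either strand, was found in 18 of 59 (30.5%), against 12.9% of the other tested genes and 9.22% of all promoters. Its reverse complement begins with pyrimidines and can lie in a TOP-like tract. The YY1-type motif AAGATGGC, on either strand, was found in 5 of 59 (8.47%), against 4.21% of the other tested genes and 3.44% of all promoters. The last 3 letters of the ETS-type motif and the first 3 of the YY1-type motif can overlap. TATAA, on either strand, was found in 16 of 59 (27.1%), against 21.1% and 26.1%.

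The probe sets standing for these genes were mostly bright, but the rule took the brightest of each gene, so this does not bear on the label. Several probe sets were there to choose from for 53 of the 69 genes, against 527 of all 14506 genes. Rpl10, whose protein joins the large subunit late in its assembly, had a mean log2 intensity of 11.44, and Rps2, which lines the mRNA entry channel of the small subunit, 12.32. Of the 69 brightest probe sets, 34 lay among the brightest 5% of all genes and 4 below the median gene, where brightness depends on the probes and is not an mRNA level per molecule. On the 8 arrays the median gene had an intensity of 170.7 to 177.9. All 11 hypothalamic markers were measured; Npy and Agrp rose in CR by 0.75 and 0.70 on the log2 scale, Oxt fell by 0.38, and the summed intensity was 8714 to 9169 in CR-l, 8784 to 8906 in CR-s, 8366 to 8381 in Con-l and 8858 to 10621 in Con-s. Markers of other cells differed with diet. Lower in CR were 7 of 7 red blood cell genes, 14 of 15 meningeal genes and 15 of 15 myelin genes. Of 8 choroid plexus genes 3 were lower and 5 higher. An adjusted p under 0.05 in limma was reached by 1.21% of all genes. Among the markers, 6 red blood cell genes (Ahsp, Alas2, Hba-a3, Hbb, Hbb-b1, Slc4a1) reached it, each lower in CR. So did 5 meningeal genes (Col1a2, Igfbp2, Ogn, Slc6a13, Slc6a20a), 5 myelin genes (Cnp, Enpp2, Ermn, Ndrg1, Ugt8) and 1 choroid plexus gene (Kcnj13), all lower. None of the 7 pituitary genes passed, and no marker passed in the leptin comparison. Cga, the hormone alpha subunit of the pituitary, was at 9.19 on Con-l replicate A, against 5.83 to 6.19 on the other 7 arrays (log2 intensity). The summed pituitary intensity was 328 to 347 in CR-l and 367 to 388 in CR-s, against 351 to 887 in Con-l and 345 to 351 in Con-s. Without Con-l replicate A the median of the 69 genes was 0.03 in the diet comparison (51 higher) and -0.01 in the leptin comparison (29 higher). The summed red blood cell intensity was 1581 to 2459 in CR-l and 2247 to 2277 in CR-s, against 4276 to 4978 in Con-l and 4610 to 6277 in Con-s, and the myelin sum was 44014 to 44637 in CR-l and 44401 to 48102 in CR-s, against 55565 to 56858 in Con-l and 51667 to 55362 in Con-s. The part of these shifts in the ribosomal protein values was not tested, and in whole tissue fewer cells of a type and less RNA per cell cannot be told apart.

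In the diet comparison, averaged over leptin and saline, the ribosomal protein mRNAs lay in a narrow band and none passed the test with the default settings of limma. CR minus Con (4 arrays against 4) had a median log2 difference of 0.03 over the 69 genes, with quartiles at -0.02 and 0.07 and extremes of -0.22 and 0.20. Over all 14506 genes the median was 0.00 and the quartiles were -0.06 and 0.06. None of the 69 passed an adjusted p of 0.05 in limma, where 1.21% of all genes did, and the smallest adjusted p was 0.095. At an unadjusted p under 0.05 there were 4 (5.80%), 2 higher and 2 lower in CR, where 15.8% of all genes reached it. The 95% confidence interval of the difference lay wholly within 1.2-fold in either direction (0.26 on the log2 scale) for 63 of the 69 genes. The other 6 were Rpl3, Rpl10, Rpl6, Rpl36a, Rps10 and Rps27. The standard error was 0.05 at the median of these genes and 0.06 at the median of all genes.

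**Figure D1:**
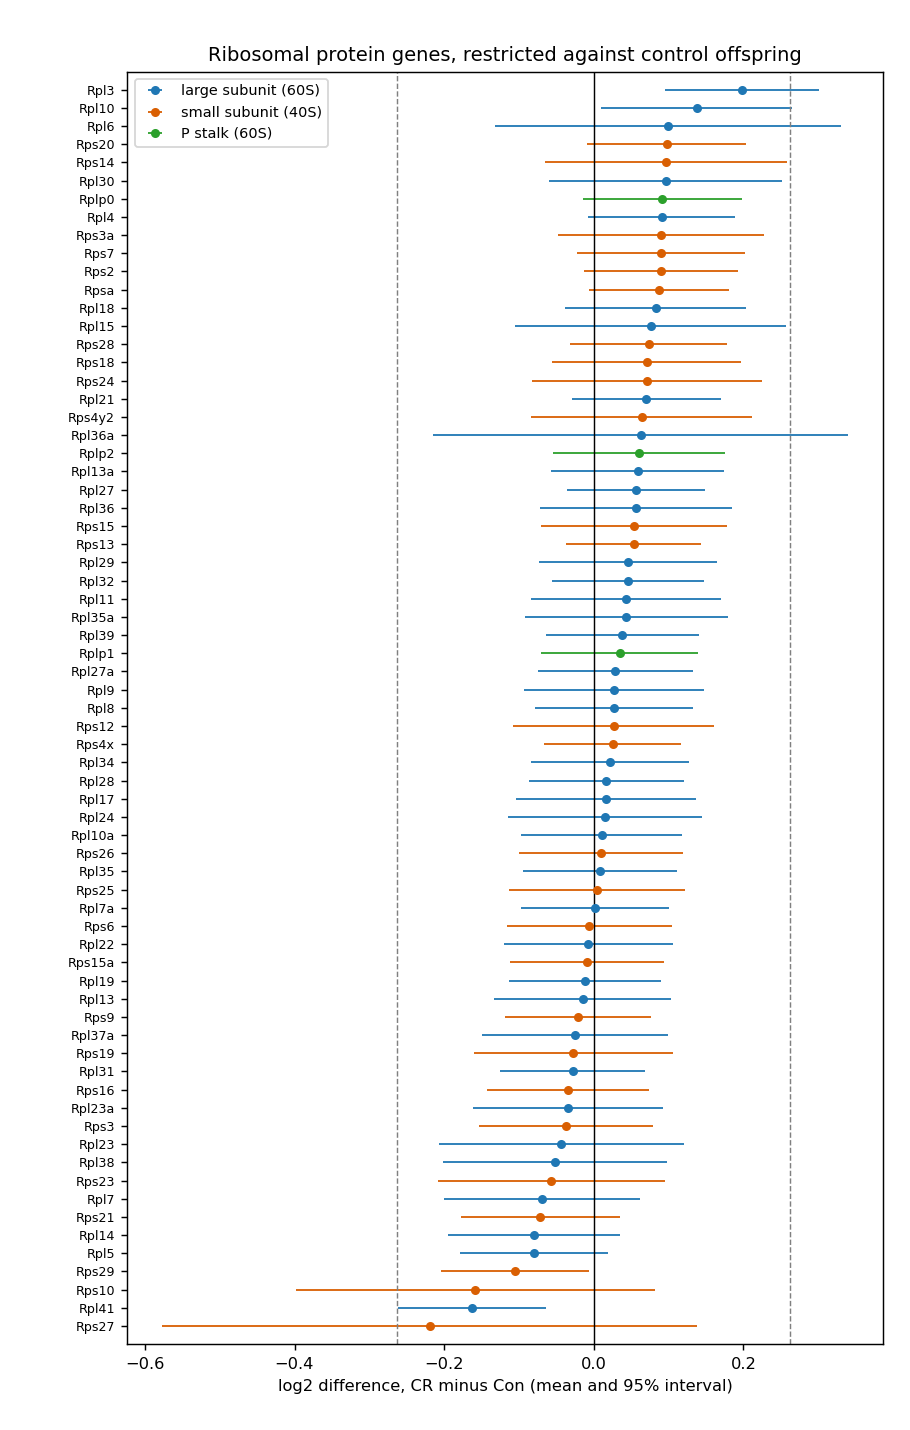
Log2 difference between CR and Con offspring for each of the 69 genes (horizontal axis), with its 95% confidence interval, coloured by subunit and ordered by the difference; 4 arrays against 4. The dashed lines mark 1.2-fold in either direction, and 63 of the 69 intervals lie between them.

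The positive side was the more common, with 46 of 69 genes higher and 23 lower in CR (66.7% higher), against 50.3% higher over all genes. Most of these differences were small: 63 of the 69 (91.3%) were under 0.1 in size, against 69.7% of all genes. The probe sets of the 69 were brighter, with a median log2 intensity of 10.63 against 7.45 for all genes. The shares and spreads set beside those of all genes were not matched for brightness, so a narrow spread cannot be credited to the gene family. The 4 CR and the 4 Con arrays did not overlap in 10 of the 69 genes (14.5%), against 11.2% of all genes. Of those 10, Rpl3, Rpl4, Rpl21, Rpl27, Rplp0, Rps7, Rps13 and Rps20 were higher in CR and Rpl41 and Rps29 lower. Large-subunit genes outside the stalk had 27 of 39 higher (median 0.03) and small-subunit genes 16 of 27 (median 0.03). The 3 stalk genes, whose proteins draw elongation factors to the ribosome, were all higher, at 0.09 for Rplp0, 0.06 for Rplp2 and 0.03 for Rplp1, none of them passing. Rplp0 measured 10.67 and 10.79 in CR-l and 10.69 and 10.64 in CR-s, against 10.57 and 10.62 in Con-l and 10.61 and 10.62 in Con-s. All its CR arrays lay above all its Con arrays, but its dimmer probe set differed by 0.0142.

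In the large subunit, Rpl3, whose protein reaches towards the site of peptide bond formation, had the highest difference. It measured 11.28 and 11.25 in CR-l and 11.25 and 11.34 in CR-s, against 11.03 and 10.99 in Con-l and 11.18 and 11.12 in Con-s (log2 intensity, replicates A and B). All CR arrays lay above all Con arrays, with the lowest values in Con-l. The log2 difference was 0.20 (SE 0.04, 95% interval 0.10 to 0.30, adjusted p = 0.095), a 1.15-fold higher value in CR that did not pass. With the variance trend and robust settings of limma it passed (adjusted p = 0.00437), as did 744 of all 14506 genes. It passed as well when only the upper 60 percent of genes by mean were tested (adjusted p = 0.0277), where 609 genes did.

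Rpl41, which encodes a very short basic peptide at the subunit interface, differed in the other direction. It measured 11.82 and 11.77 in CR-l and 11.76 and 11.74 in CR-s, against 11.82 and 11.90 in Con-l and 12.04 and 11.99 in Con-s. The highest values were those of Con-s, and the nearest arrays of the diets, CR-l replicate A and Con-l replicate A, were both at 11.82 when rounded, the CR-l array being the lower. The difference was -0.16 (SE 0.04, interval -0.26 to -0.06, adjusted p = 0.128). It too passed with trend and robust settings (adjusted p = 0.00676), where 744 of all genes did. Among the upper 60 percent of genes it passed as well (adjusted p = 0.0416), where 609 genes did.

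Rpl10 measured 11.51 and 11.48 in CR-l and 11.50 and 11.54 in CR-s, against 11.27 and 11.38 in Con-l and 11.50 and 11.33 in Con-s. Con-s replicate A lay among the CR arrays, so the diets overlapped. The difference was 0.14 (SE 0.05, adjusted p = 0.284). Among the other large-subunit genes the highest were Rpl6 at 0.10 (SE 0.10) and Rpl30 at 0.10 (SE 0.07), and the lowest Rpl5 and Rpl14, each at -0.08 (SE 0.04 and 0.05). Rpl5 and Rpl11, which with the 5S RNA form a particle that also binds the p53 regulator Mdm2, stood at -0.08 and 0.04.

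In the small subunit, Rps29, a zinc-binding protein of the 40S head, measured 13.01 and 13.04 in CR-l and 13.03 and 13.00 in CR-s, against 13.16 and 13.07 in Con-l and 13.16 and 13.11 in Con-s. The groups of the diets did not overlap, and the difference was -0.10 (SE 0.04, interval -0.20 to -0.01, adjusted p = 0.291). With trend and robust settings it passed (adjusted p = 0.0317), as did 744 of all 14506 genes. Rps20, Rps14, Rps2 and Rpsa differed by 0.10 (SE 0.05), 0.10 (SE 0.07), 0.09 (SE 0.04) and 0.09 (SE 0.04), none passing. Rps6, the small-subunit protein that S6 kinase phosphorylates, stood at -0.01 (interval -0.12 to 0.10).

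The lowest differences of the small subunit came from genes whose replicates disagreed. Rps27 had the dimmest probe set of all 69. It measured 4.81 and 4.86 in CR-l and 4.92 and 4.15 in CR-s, against 5.11 and 4.93 in Con-l and 4.82 and 4.75 in Con-s. A single array, CR-s replicate B, stood far below the other 7, and the difference of -0.22 carried an SE of 0.15. Without that array the difference was -0.028. Rps10, a protein of the 40S head, measured 10.37 and 10.82 in CR-l and 10.62 and 10.83 in CR-s, against 10.92 and 10.78 in Con-l and 10.81 and 10.76 in Con-s. Here CR-l replicate A was the low array, and the difference was -0.16 (SE 0.10, adjusted p = 0.51), or -0.047 without that array.

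**Figure D2:**
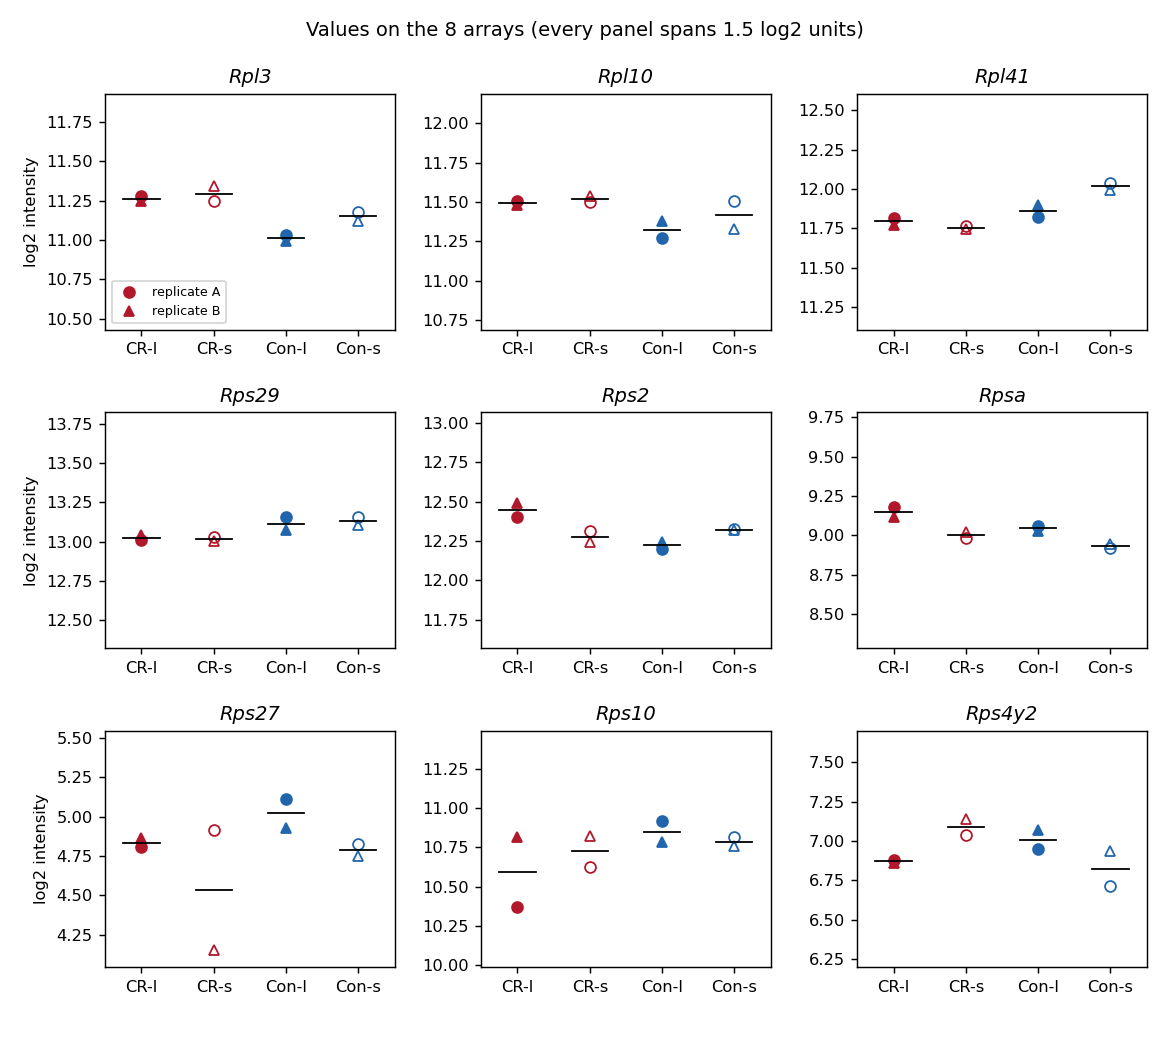
Log2 intensity of 9 ribosomal protein genes on each array (vertical axis; every panel spans the same number of log2 units), by group, with circles for replicate A, triangles for replicate B, filled symbols for leptin, open ones for saline and a bar at the group mean of 2 arrays. Rpl3, Rps29 and, narrowly, Rpl41 show no overlap between CR and Con arrays, while the lowest points are CR-s replicate B for Rps27 and CR-l replicate A for Rps10.

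Split by treatment, the median diet difference was 0.05 under leptin and 0.00 under saline, a contrast that was not tested over the genes together. Single arrays moved both medians. The saline one was 0.0458 without Con-s replicate A and -0.0283 without Con-s replicate B. The one under leptin was 0.0605 without CR-l replicate A and 0.0232 without CR-l replicate B. Under leptin (CR-l minus Con-l, 2 arrays each) the median over the 69 genes was 0.05, with 44 higher and 25 lower and extremes of -0.26 and 0.25. None passed in limma, where 0.0207% of all genes did, and 3 genes (4.35%) had an unadjusted p under 0.05 where 14.2% of all genes did. Those 3 were Rpl3 (0.25, SE 0.06, adjusted p = 0.164), Rps2 (0.22, SE 0.06, adjusted p = 0.19) and Rpl18 (0.22, SE 0.07, adjusted p = 0.251). Rps2 measured 12.40 and 12.49 in CR-l and 12.31 and 12.24 in CR-s, against 12.20 and 12.25 in Con-l and 12.32 and 12.32 in Con-s, and both CR-l arrays were the highest of the 8. With trend and robust settings Rpl3 and Rps2 passed (adjusted p = 0.0133 each), where 469 of all 14506 genes did. The lowest were Rps10 at -0.26 (SE 0.14, and -0.033 without CR-l replicate A), Rps27 at -0.19 (SE 0.22, and -0.095 without Con-l replicate A) and Rps4y2 at -0.14 (SE 0.09, and -0.077 without Con-l replicate B).

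Under saline (CR-s minus Con-s, 2 arrays each) the median was 0.00, with 36 higher and 33 lower and extremes of -0.26 and 0.26. None of the 69 and 0.0% of all genes passed in limma, and 3 (4.35%) against 8.5% of all genes had an unadjusted p under 0.05. Rpl41 was the lowest at -0.26 (SE 0.06, adjusted p = 0.344). It passed with trend and robust settings (adjusted p = 0.0177), where 66 of all 14506 genes did. Rpl5 followed at -0.21 (SE 0.06, adjusted p = 0.412) beside Rps27 at -0.25 (SE 0.22), which turned to 0.13 without CR-s replicate B. Rpl5 measured 10.80 and 10.89 in CR-s, against 11.07 and 11.03 in Con-s. On the higher side were Rps4y2, a paralogue of the small-subunit gene Rps4x, at 0.26 (SE 0.09, adjusted p = 0.472, and 0.16 without Con-s replicate A), Rpl36a at 0.20 (SE 0.17) and Rpl3 at 0.15 (SE 0.06).

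In the leptin comparison, averaged over both diets, no ribosomal protein gene passed the test either. Leptin minus saline (4 arrays against 4) had a median of -0.00 over the 69 genes, with quartiles at -0.03 and 0.03, and 31 were higher and 38 lower, against 52.2% higher over all genes. Without Con-s replicate A the median was 0.0203 (46 higher), and without Con-s replicate B it was -0.0244 (23 higher). None of the 69 and 0.0% of all genes passed in limma. At an unadjusted p under 0.05 there was 1 (1.45%), against 4.87% of all genes, and that gene was also the 1 whose leptin and saline arrays did not overlap (1.45%, against 2.37% of all genes). It was Rpsa, which is needed to assemble the small subunit and was first described as a laminin receptor. Rpsa measured 9.18 and 9.12 in CR-l and 9.06 and 9.03 in Con-l, against 8.99 and 9.02 in CR-s and 8.92 and 8.94 in Con-s. Every leptin array lay above every saline array, with Con-l replicate B nearest to CR-s replicate B, and the difference was 0.13 (SE 0.04, interval 0.04 to 0.22, adjusted p = 0.913). The dimmer of its 2 probe sets had a difference of 0.0051, so this value was seen on the brightest probe set only. For 66 of the 69 genes the interval of the leptin difference lay within 1.2-fold.

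Other genes at the ends of the leptin comparison were Rps27 (0.27, SE 0.15, and 0.077 without CR-s replicate B), Rps3a (0.12, SE 0.06, and 0.071 without Con-s replicate B), Rps12 (0.09, SE 0.06), Rpl35a (0.09, SE 0.06) and Rps18 (0.07, SE 0.05) on the higher side. On the lower side were Rpl23a (-0.10, SE 0.05, and -0.059 without Con-l replicate B), which lies beside the exit of the nascent chain, Rpl32 (-0.10, SE 0.04), Rpl3 (-0.08, SE 0.04), Rpl36a (-0.08, SE 0.12), Rps24 (-0.07, SE 0.07) and Rps15 (-0.07, SE 0.05). Rpl10, Rps2 and Rplp0 stood at -0.06, 0.04 and 0.03. Small-subunit genes had 16 of 27 higher (median 0.01) and large-subunit genes outside the stalk 13 of 39 (median -0.03), a contrast that was not tested.

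In restricted offspring (CR-l minus CR-s) the median was 0.01, with 43 higher and 26 lower. None of the 69 and 0.0% of all genes passed in limma, and 3 (4.35%) against 5.85% of all genes had an unadjusted p under 0.05: Rps2 at 0.17 (SE 0.06), Rpsa at 0.15 (SE 0.06) and Rps4y2 at -0.22 (SE 0.09), each at an adjusted p of 0.808. Rps27 had the highest value, 0.30 (SE 0.22), which turned to -0.081 without CR-s replicate B, and Rpl36a and Rpl23a the lowest after Rps4y2, at -0.21 (SE 0.17) and -0.14 (SE 0.08, and -0.081 without CR-l replicate A). In control offspring (Con-l minus Con-s) the median was -0.00, with 33 higher and 36 lower. None of the 69 and 0.0% of all genes passed in limma, and 4 (5.80%) against 4.19% of all genes had an unadjusted p under 0.05, all 4 lower under leptin. These were Rpl32 (-0.18, SE 0.06), Rpl18 (-0.18, SE 0.07, and -0.12 without Con-s replicate A), Rpl5 (-0.18, SE 0.06) and Rpl41 (-0.16, SE 0.06). Rpl15 was among the lowest as well (-0.18, SE 0.11), between -0.30 and -0.062 when an array was left out. The highest were Rps27 (0.23, SE 0.22, and 0.14 without Con-l replicate A), Rps4y2 (0.18, SE 0.09, and 0.074 without Con-s replicate A) and Rpsa (0.11, SE 0.06); all of these were at an adjusted p of 0.997. The comparisons within a diet or treatment share arrays with each other, so their values are given side by side only.

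The difference between the leptin effects (CR-l minus CR-s, less Con-l minus Con-s) had a median of 0.03 over the 69 genes. None of the 69 and 0.0% of all genes passed in limma, and 4 (5.80%) against 5.15% of all genes had an unadjusted p under 0.05. Rps4y2 had the largest value of the 69 in size, -0.40 (SE 0.13, interval -0.70 to -0.11, adjusted p = 0.898). Rps4y2 rests on 1 probe set, with a mean log2 intensity of 6.95, below the median gene at 7.45. It measured 6.88 and 6.86 in CR-l and 7.04 and 7.14 in CR-s, against 6.95 and 7.07 in Con-l and 6.72 and 6.93 in Con-s. Both CR-l arrays lay below both CR-s arrays, and both Con-l arrays lay above both Con-s arrays. The other genes at that unadjusted level were Rpl18 (0.27, SE 0.10), Rps2 (0.27, SE 0.09) and Rpl5 (0.26, SE 0.08). Rpl38 stood at 0.27 (SE 0.13, and 0.15 without CR-l replicate B), and Rpl36a and Rps10 at -0.26 (SE 0.24) and -0.19 (SE 0.20). The last of these turned to 0.028 without CR-l replicate A, and Rpl36a to 0.031 without Con-l replicate A. The intervals of this comparison are wide, with 22 of 69 inside 1.2-fold.

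**Figure D3:**
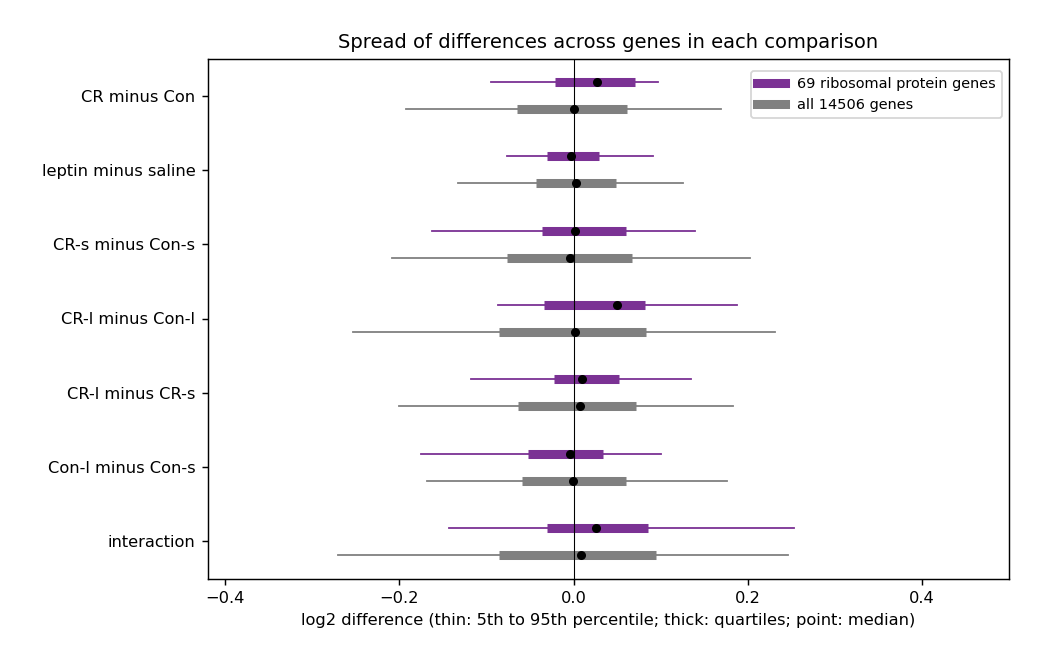
Spread of the log2 differences across genes in the 7 comparisons (rows), for the 69 ribosomal protein genes and for all 14506 genes: thin lines run from the 5th to the 95th percentile, thick lines between the quartiles, and points mark medians. The medians of the ribosomal protein genes lie between -0.00 and 0.05.

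Replicate arrays of a group differed by about as much as the diets did. Relative to each gene's mean over the 8 arrays, the 69 genes had a median of -0.01 and 0.03 in CR-l, 0.00 and 0.01 in CR-s, -0.00 and -0.04 in Con-l and 0.04 and -0.04 in Con-s (replicates A and B). Con-s held both the highest and the lowest array: 50 of the 69 genes were above their own mean on replicate A and 15 on replicate B. Replicate A exceeded replicate B there by a median of 0.08, more than the median diet difference of 0.03. Without Con-s replicate B the median diet difference was 0.0054 (37 of 69 higher), and without Con-s replicate A it was 0.04 (54 of 69 higher). The median of all genes stayed within 0.01 of 0 on every array. The absolute difference between replicates had a median over the 69 genes of 0.05 in CR-l, 0.04 in CR-s, 0.06 in Con-l and 0.08 in Con-s, against 0.08, 0.09, 0.09 and 0.08 over all genes. From the lowest to the highest of the 8 arrays a ribosomal protein gene spanned 0.20 at the median and 66 of the 69 spanned less than 0.5, the exceptions being Rps27 (0.96), Rpl36a (0.59) and Rps10 (0.54). The narrowest was Rps13 at 0.10.

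**Figure D4:**
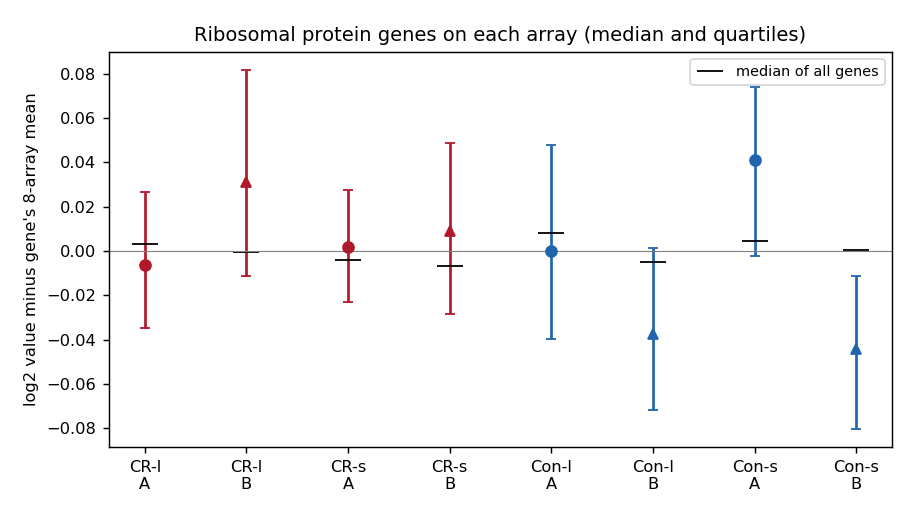
Median and quartiles over the 69 ribosomal protein genes of the log2 value minus the gene's mean over 8 arrays (vertical axis), for each array, with the median of all genes as a dash. Con-s replicate A is highest at 0.04 and Con-s replicate B lowest at -0.04.

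Ribosomal protein genes have many near-identical copies in mammalian genomes, and the array carries several probe sets for most of them: 250 uniquely named probe sets for the 69 genes, with 53 genes having more than 1 and Rpl21 having 21. Probe sets of the same gene are no replicates, since they share sequence; 14 of the 250, from 6 genes, had a twin with identical values on all 8 arrays (Rpl9, Rpl35a, Rpl36, Rpl39, Rps10 and Rps20). Signal from a gene and from its copies cannot be told apart here. In the diet comparison 176 of the 250 probe sets were higher in CR (median 0.03, range -0.22 to 0.20), and none passed when all probe sets of the array were tested together (limma, smallest adjusted p 0.202). In that setting 0.0% of all 29215 probe sets passed, and 7 of the 250 had an unadjusted p under 0.05 where 11.5% of all probe sets did. All 21 probe sets of Rpl21 were higher, from 0.05 to 0.09. All 9 of Rps2 were higher as well, from 0.07 to 0.09, and the dimmer probe sets of Rps20 ran from 0.08 to 0.09 beside 0.10 for the brightest.

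Of the 181 dimmer probe sets, 164 had the sign of the brightest one in the diet comparison and 148 in the leptin comparison. In the diet comparison 10 of the 53 genes held a probe set of the other sign: Rpl5, Rpl7a, Rpl10a, Rpl13, Rpl22, Rpl23a, Rpl31, Rps3, Rps9 and Rps26. For most of these the values lay near 0, as for Rpl7a, where 13 probe sets ran from -0.01 to 0.03. Rpl5 was the clearest case, with -0.08 on the brightest probe set and 0.02 and 0.08 on the dimmer ones, so its direction depends on the probe set. Rps9 likewise had -0.02 on the brightest and 0.05 and 0.13 on the dimmer ones. In the leptin comparison 16 genes were mixed: Rpl4, Rpl5, Rpl9, Rpl13, Rpl21, Rpl27, Rpl28, Rpl31, Rpl37a, Rpl39, Rps9, Rps13, Rps15a, Rps19, Rps21 and Rps23.

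**Figure D5:**
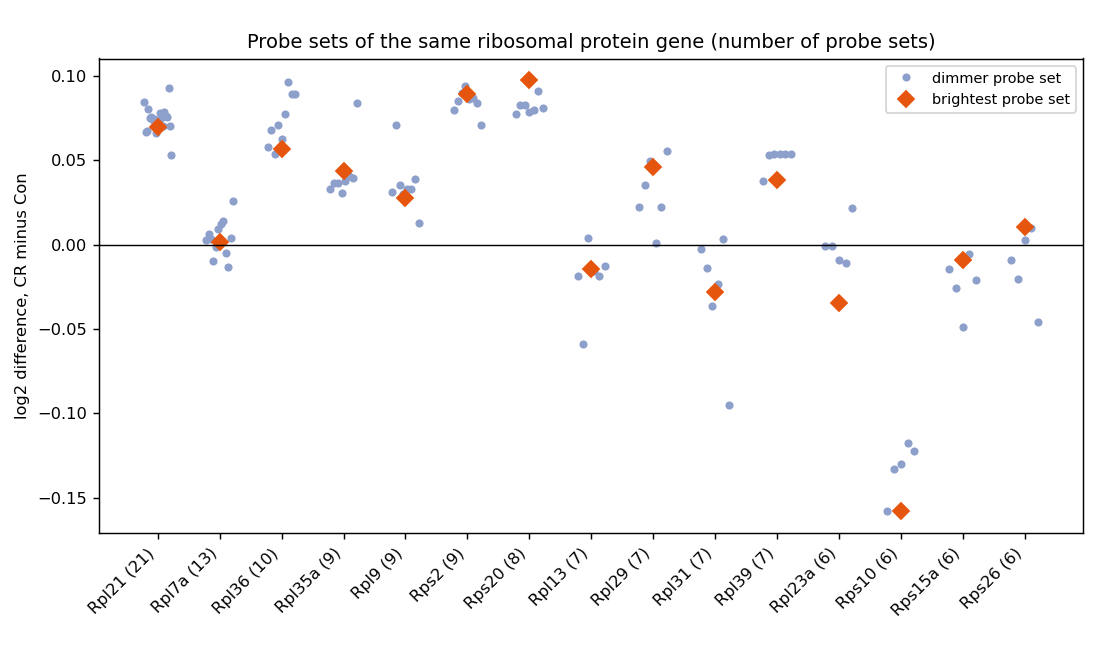
Log2 difference between CR and Con offspring (vertical axis) for every probe set of the genes with at least 6 of them, the number of probe sets in brackets. Diamonds mark the brightest probe set and dots the dimmer ones; those of Rpl21, Rps2 and Rps20 lie together above 0 and those of Rps10 together below it.

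Genes with the TOP pattern exactly at the annotated start and genes without it there are set side by side here, with no test. The second set includes genes with the pattern within 5 bases of the start, such as Rpl13 and Rps24, as 38 of the 59 have it there. The split is therefore not one of TOP against non-TOP mRNAs. In the diet comparison the 23 with a C and 4 pyrimidines at the start had a median of 0.02 (17 higher, 6 lower), and the other 36 had 0.03 (22 higher, 14 lower). In the leptin comparison the medians were 0.01 and -0.01. Of the genes with the smallest p in the diet comparison, Rpl3 and Rpl41 lack a C at the annotated start, as their windows show. Rpl10, next by p, has a C and a run of 12 pyrimidines there, and Rps29 has no entry.

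No gene of the other translation lists passed in the diet comparison, where 1.21% of all genes did, so few would be looked for in lists of this size. Among 31 measured initiation factor genes, 18 were higher and 13 lower in CR (median 0.04); the smallest p were those of Eif2b3 (0.15, SE 0.04, adjusted p = 0.137), a subunit of the exchange factor that recharges eIF2 with GTP, and Eif3e (0.19, SE 0.05, adjusted p = 0.14). Among 12 elongation and termination genes, 4 were higher and 8 lower (median -0.01), led by Eef1d (-0.12, SE 0.04) and Eef1a2 (-0.10, SE 0.04). Of 51 genes for ribosome assembly in the nucleolus 25 were higher and 26 lower (median -0.00), with Bms1 at -0.15 (SE 0.05) and Gnl2 at 0.15 (SE 0.05) having the smallest p, and of 13 genes of RNA polymerase I and its factors, which make the ribosomal RNA precursor, 6 were higher and 7 lower, led by Polr1g (0.07, SE 0.05) and Polr1d (-0.05, SE 0.04).

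Among 18 genes between mTORC1 and S6 kinase, 11 were higher and 7 lower in CR (median 0.01). Tbc1d7, a subunit of the TSC complex that restrains mTORC1, had the smallest p (0.17, SE 0.04, adjusted p = 0.0959) and Akt1 followed (0.10, SE 0.04, adjusted p = 0.266). Tbc1d7 measured 8.25 and 8.29 in CR-l and 8.22 and 8.21 in CR-s, against 8.05 and 8.06 in Con-l and 8.07 and 8.09 in Con-s, with all CR arrays above all Con arrays. Of 13 other genes known for TOP mRNAs or the nascent chain, 7 were higher and 6 lower (median 0.01), with Eif3e and Eif4b (0.19, SE 0.05) first. The ribosomal protein Fau and the ribosome-bound scaffold Rack1, which fall outside the name rule, stood at -0.03 (SE 0.05) and -0.05 (SE 0.05). Among the names left out other than the S6 kinases, the paralogues Rpl36al1 and Rpl22l1 had -0.14 (SE 0.04, adjusted p = 0.202) and -0.04 (SE 0.07). Rps19bp1 had -0.09 (SE 0.06), while Rpl37l1 and Rpl17-ps16 were higher, each at 0.03 (SE 0.06 and 0.07).

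In the averaged leptin comparison none of these lists held a gene that passed, and 0.0% of all genes did. The medians of the lists lay between -0.03 and 0.03. Eif3i, a subunit of the initiation factor eIF3, had the lowest value of the 31 initiation genes, -0.32 (SE 0.05, adjusted p = 0.913). It measured 6.97 and 7.09 in CR-l and 6.65 and 6.67 in Con-l, against 6.97 and 7.07 in CR-s and 7.36 and 7.25 in Con-s, so that the Con groups lay apart and the CR groups overlapped. Eif2s2, with the next smallest p, had the highest value of the list (0.12, SE 0.04). The smallest p of the other lists were those of Eef2k (0.12, SE 0.06) and Eef2 (0.03, SE 0.05) for elongation, Noc3l (-0.15, SE 0.06) and Nop14 (0.10, SE 0.04) for assembly, Polr1f (0.09, SE 0.06) and Polr1b (-0.10, SE 0.07) for RNA polymerase I, Rps6kb2 (0.19, SE 0.07) and Mtor (0.09, SE 0.04) for mTORC1, and Eif3e (0.05, SE 0.05) and Hnrnpa1 (0.03, SE 0.04) for the other TOP mRNAs.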

How the data were processed

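The authors deposited RMA intensities per probe set, made in Affymetrix Expression Console per the submitters' processing notes; no version or genome build is named in the sources used here. Deposited values are linear and were log2-transformed, not normalized again. Of 29215 probe sets, 15310 carry 1 gene symbol in GEO's platform annotation, 323 several and 13582 are not listed there. Symbols were updated by Entrez number (15279 probe sets) or accession (6), and 25 kept the array's symbol. The brightest probe set per gene gave 14506 genes. Limma 3.58.1 in R 4.3.3 fitted 4 group means over 8 arrays (lmFit, eBayes, 4 residual and 3.21 prior degrees of freedom), and p-values were Benjamini-Hochberg adjusted over all genes in each of 7 comparisons, with two-sided tests and a threshold of 0.05. The fit was tested on simulated data. The number of arrays limits the precision. Members, gene lists and tests were chosen with earlier results of these data known. Genes were named by rule: Rpl10, Rps2, Rplp0 and Rpsa; the 6 highest and 6 lowest members in each averaged comparison and 3 and 3 in the others; members with probe sets of opposite sign; and, in each list, genes that passed and the 2 with the smallest p. Rps6, Rps7, Rpl9, Rpl11, Rpl35a, Rpl36, Rplp1, Rplp2, Rps19bp1, Rpl37l1 and Rpl17-ps16 were also named after their values were seen. Marker genes are named where they passed, and Cga after its values were seen. Rps4y2 stood in the paralogue list and was counted as a member, as the rule has it. Alternatives were 3 scalings, trend and robust settings, a brightness filter, all probe sets together, the mean of a gene's probe sets, the replicate letters as a block and leaving out each array.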

Additional observations from a re-analysis of the deposited data

How the results depend on the processing

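The median diet difference over the 69 genes stayed above 0 under the 3 scalings, the brightness filter and the mean of probe sets (0.0274 to 0.0359) and without any single array (0.0054 to 0.0419); the other alternatives change only the errors or the number of tests. Members that passed in the averaged diet comparison numbered 0 of 69 as reported, 3 of 69 with trend and robust settings and 2 of 68 among the upper 60 percent of genes. With trend and robust settings 1 of 69 passed under saline, where 66 of all 14506 genes did. Under leptin 2 of 69 passed with these settings, where 469 of all genes did. Every other alternative with all 8 arrays gave 0 members in all 7 comparisons. Over all genes the averaged diet comparison had 175 calls, against 744 with trend and robust settings, 609 among the upper 60 percent, 0 with all probe sets together, and 0 (without Con-s replicate B) to 27 when an array was left out. The replicate letters do not pair the arrays (correlations of deviations between -0.06 and 0.11); with them as a replicate block, 0 members and 87 genes passed. The near-zero medians changed sign with scaling. Cyclic loess gave 0.0004 for leptin minus saline, 0.01 for Con-l minus Con-s and -0.00 for the interaction. Centring gave -0.01 for CR-l minus CR-s. Leaving out an array, the medians ran from -0.028 to 0.046 (CR-s minus Con-s), -0.043 to 0.029 (Con-l minus Con-s) and -2.9e-05 to 0.065 (interaction), the ends being set by the Con-s replicates. For leptin minus saline they ran from -0.0244 to 0.0203, with the same arrays at the ends. Directions that reversed were Rpl5 in the diet comparison with the mean of its probe sets (0.0092), and, leaving out an array, Rps27 without CR-s replicate B (range -0.636 to 0.13 for CR-s minus Con-s, -0.081 to 0.68 for CR-l minus CR-s), Rpl36a without a Con-l array (-0.23 to 0.068 for leptin, -0.560 to 0.031 for the interaction), Rplp0 without CR-l replicate B (-0.0038 to 0.056 for leptin) and Rps10 without CR-l replicate A (-0.417 to 0.028 for the interaction). The cause was not tested.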
